A study of Mus musculus with 16 samples.

Results

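Tmem125, Ddc, Dct, Casr, S1pr5, Cldn14, Hapln2, Adamts4 and Trf are 9 of the 55335 mouse genes counted in cultured oligodendrocyte precursor cells (OPCs). They were picked because they are expressed in oligodendrocytes and had large falls in libraries labelled RXRgKO against libraries labelled WT, so those falls are given as a description with no test. All 9 passed the filter on low counts, as did 19764 genes in all. The question is what level each gene had in the 4 groups of libraries and how far thyroid hormone (T3) raised it under each label.

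RNA was measured in 16 libraries of OPCs derived from mouse neural stem cells through oligospheres, taken on day 4 of monolayer culture from mice of a C57BL6J/129svEmx mixed background. The groups, with 4 libraries each, were RXRgKO (RXRg-/-) with T3 for 24 h, RXRgKO untreated, WT (RXRg+/+) with T3 for 24 h and WT untreated. RXRg is retinoid X receptor gamma, encoded by Rxrg. The sources used here do not say how the allele was made, nor whether replicates came from separate mice or cultures, so p-values measure the spread between these libraries, which may be technical. Levels are gene counts scaled to a common library total (counts per 1000000, CPM) after TMM scaling, and changes are log2 fold changes ± standard error (SE) from edgeR's quasi-likelihood test, called at a Benjamini-Hochberg adjusted p under 0.05.

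Oligodendrocytes wrap axons of the central nervous system in myelin and arise from OPCs through committed and premyelinating stages. T3 promotes their maturation by acting on nuclear thyroid hormone receptors, which bind DNA as pairs with retinoid X receptors, typically at repeats of the motif AGGTCA. The 9 genes are not myelin structural genes: they encode 2 enzymes of small-molecule synthesis, 2 cell-surface receptors, 3 secreted proteins of the matrix or of iron transport, 1 tight-junction protein and 1 membrane protein with no well-established role.

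The targeted gene went against the labels. Rxrg stood at 5.46, 4.89, 4.27 and 5.05 CPM in the RXRgKO-labelled T3 libraries (replicates 1 to 4), and at 4.83, 3.77, 4.60 and 3.79 CPM in the RXRgKO-labelled untreated ones. The WT-labelled T3 libraries held 0.885, 0.96, 0.597 and 0.371 CPM and the WT-labelled untreated ones 1.79, 1.48, 1.14 and 1.65 CPM. Every RXRgKO-labelled library was thus higher than every WT-labelled one, and the untreated difference was 1.48 ± 0.22 (adjusted p = 0.000199). Counts per gene do not show whether a part of the transcript is missing, and every direction between labels given here rests on the labels as deposited.

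Libraries held 18262279 to 42588442 gene counts, and no member had a count of 0 in any library; the lowest counts were 2, for Casr and Cldn14. Libraries of 1 group fell into sets that differed from each other far more than the libraries within them, with a chi-square per gene of 4.79 to 7.64 between sets and 1.49 to 2.09 within. WT-labelled replicate 1 stood alone in both treatments. The RXRgKO-labelled libraries split into those lacking Xist (1.39 to 3.75 CPM; untreated replicates 1 and 3, T3 replicates 1 and 2) and those with it (543 to 723 CPM; untreated replicates 2 and 4, T3 replicates 3 and 4). Xist, the RNA of the silenced X in females, and the Y-linked Ddx3y also differed between T3 and untreated libraries. The direction was not the same in all sets. WT-labelled T3 replicates 2 to 4 held 276 to 365 CPM of Xist and 68.1 to 78.3 CPM of Ddx3y, against 1200 to 1380 CPM and 13.9 to 15.8 CPM in WT-labelled untreated replicates 2 to 4. WT-labelled replicate 1 differed less, with 401 CPM of Xist and 60.6 CPM of Ddx3y with T3 against 526 CPM and 73.3 CPM untreated. RXRgKO-labelled libraries with Xist held 723 and 711 CPM of it with T3 against 543 and 631 CPM untreated. Their Ddx3y was at 22.1 and 20.7 CPM with T3 against 52.9 and 51.2 CPM untreated. RXRgKO-labelled libraries lacking Xist held 126 and 124 CPM of Ddx3y with T3 against 115 and 118 CPM untreated. OPC markers were present in all groups: the 17 genes of the OPC list summed to 2580 to 4850 CPM in RXRgKO-labelled T3 libraries, 2900 to 4940 CPM in RXRgKO-labelled untreated ones, 3430 to 4880 CPM in WT-labelled T3 ones and 4150 to 5330 CPM in WT-labelled untreated ones.

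Promoters are shown for Ddc and Cldn14, which stood at opposite ends of the T3 responses described further on, and for Dct. They are the 250 bases before the RefSeq start (GRCm38.p6), with searched motifs in capitals, at chr11:11898145-11898394 for Ddc, chr16:94008838-94009087 for Cldn14 and chr14:118052247-118052496 for Dct, all on the minus strand and written 5′ to 3′.
Ddc: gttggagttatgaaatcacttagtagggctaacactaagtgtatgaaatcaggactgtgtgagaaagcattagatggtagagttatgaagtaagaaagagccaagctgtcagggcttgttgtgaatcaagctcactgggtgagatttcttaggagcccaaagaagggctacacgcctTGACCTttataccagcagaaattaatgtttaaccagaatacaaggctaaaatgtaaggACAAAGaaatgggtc
Cldn14: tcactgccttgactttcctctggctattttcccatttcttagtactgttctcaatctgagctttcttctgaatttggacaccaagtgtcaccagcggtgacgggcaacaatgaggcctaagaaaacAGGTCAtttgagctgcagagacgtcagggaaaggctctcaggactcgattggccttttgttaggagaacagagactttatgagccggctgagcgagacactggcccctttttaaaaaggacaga
Dct: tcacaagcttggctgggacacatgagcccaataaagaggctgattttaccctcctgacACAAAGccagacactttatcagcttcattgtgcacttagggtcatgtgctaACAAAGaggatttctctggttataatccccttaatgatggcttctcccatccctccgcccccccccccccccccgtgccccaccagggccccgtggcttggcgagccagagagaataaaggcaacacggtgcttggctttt

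The motifs searched, on both strands, were AGGTCA (bound by nuclear receptors; TGACCT on the other strand), the same motif repeated in 1 direction with 4 bases or 1 base between, ACAAAG (the core bound by SOX factors) and CAGCTG (an E-box, bound by basic helix-loop-helix factors). The RefSeq promoter table used here matched 7 of the 9 genes, with 10 entries; the promoters of Adamts4 and Trf were not analysed here. AGGTCA lay in 4 of the 10 entries, all of them of Cldn14 (3 entries) or Ddc (1 entry), against 14% of 32851 mouse promoters. It began 124 bases before the Cldn14 start shown and, reversed, 73 bases before the Ddc start. No entry held either direct repeat, which 0.0152% (4 bases between) and 0.0335% (1 base between) of promoters hold. ACAAAG lay in 4 of 10 entries, against 16.5% of promoters. Dct held it at 192 and 141 bases before its start. CAGCTG lay in 2 of 10 entries, of Hapln2 and Cldn14, against 13% of promoters. The entries of Tmem125 and S1pr5 held no match. These matches are letters in a window and were not tied to any measured binding.

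All 9 genes were lower in RXRgKO-labelled than in WT-labelled libraries with no overlap between libraries, both without T3 (log2 fold change -4.87 to -2.51) and with it (-6.52 to -2.70). Called lower among all 19764 genes were 5.16% without T3 and 6.8% with T3. As the genes were chosen for these falls, these counts carry no test. Ranked from the largest fall without T3, they stood between rank 6 (Tmem125) and rank 80 (Trf). In bulk RNA, fewer cells of a type and less RNA per cell cannot be told apart. Per kilobase of exon, the untreated WT-labelled mean was highest for Adamts4 (61 CPM per kb), then Ddc (20.6), Tmem125 (6.91), Trf (6.47), S1pr5 (4.75), Hapln2 (3.91), Dct (2.93), Casr (1.1) and Cldn14 (0.861). Per library and per kb, neighbours in this order overlapped between Tmem125 and Trf and from S1pr5 down to Cldn14, and did not overlap elsewhere. The place of Trf in this order is uncertain, as 2108 of its 3320 exonic bases are shared with another gene.

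**Figure D1:**
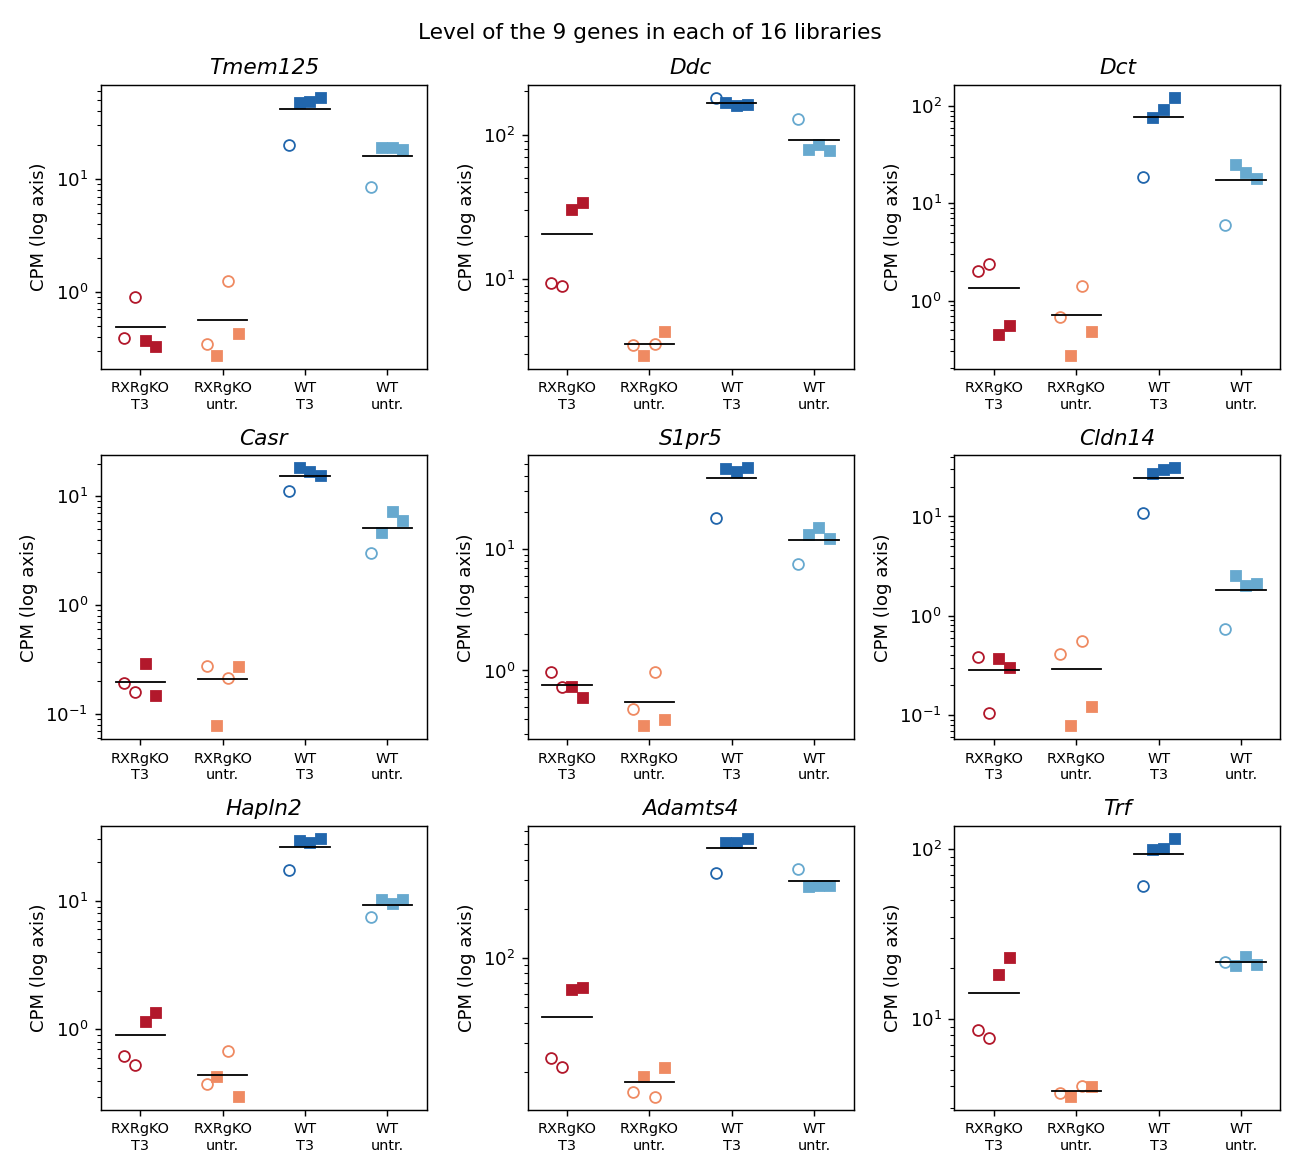
Level of each of the 9 genes in every library, in CPM on a log axis, for the RXRgKO-labelled T3 and untreated and the WT-labelled T3 and untreated groups (4 libraries each). Each marker is a library (open circles, WT-labelled replicate 1 or the RXRgKO-labelled libraries lacking Xist; filled squares, the others) and each black bar is the group mean; Trf in RXRgKO-labelled T3 replicate 4 (22.7 CPM) lies within the WT-labelled untreated range of 20.6 to 23.0 CPM.

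The enzymes were Ddc and Dct. Ddc encodes aromatic L-amino acid decarboxylase, which makes dopamine and serotonin from their precursors. It stood at 9.44, 8.89, 29.9 and 33.5 CPM in RXRgKO-labelled T3 libraries (replicates 1 to 4) and at 3.46, 2.93, 3.53 and 4.30 CPM in RXRgKO-labelled untreated ones. WT-labelled libraries held 180, 165, 159 and 159 CPM with T3 and 129, 77.7, 85.0 and 76.6 CPM untreated. All T3 libraries were above all untreated ones under both labels, and under the RXRgKO label replicates 3 and 4 were well above replicates 1 and 2. T3 raised Ddc by 2.53 ± 0.37 under the RXRgKO label (adjusted p = 0.000789), the largest T3 rise of the 9 genes there. Under the WT label the change was 0.85 ± 0.34 (adjusted p = 0.142), and with the replicate number as a block in the 8 WT-labelled libraries it was 0.87 (adjusted p = 0.000146), within a range of 0.000146 to 0.323 over the alternatives.

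Dct encodes dopachrome tautomerase, an enzyme of melanin synthesis in pigment cells. Its levels were 2.01, 2.37, 0.442 and 0.542 CPM in RXRgKO-labelled T3 libraries, 0.685, 0.27, 1.40 and 0.478 CPM in RXRgKO-labelled untreated ones, 18.9, 75.1, 90.9 and 122 CPM in WT-labelled T3 ones, and 5.94, 24.7, 20.5 and 17.9 CPM in WT-labelled untreated ones. T3 replicates 1 and 2 under the RXRgKO label were the high ones here, the reverse of Ddc, and the T3 and untreated ranges overlapped under both labels. T3 changed Dct by 2.15 ± 0.55 under the WT label (adjusted p = 0.0222). That call was lost without WT-labelled untreated replicate 3 or 4 or T3 replicate 3 or 4 (adjusted p 0.0553 to 0.0825) and with no filter on low counts (adjusted p = 0.122), within a range of 1.65e-05 to 0.122 over the alternatives. Under the RXRgKO label the change was 0.83 ± 0.75 (adjusted p = 0.616).

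The receptors were Casr and S1pr5. Casr encodes the calcium-sensing receptor, through which parathyroid cells read extracellular calcium. It was barely counted under the RXRgKO label, at 0.193, 0.158, 0.286 and 0.148 CPM with T3 and 0.274, 0.077, 0.213 and 0.269 CPM untreated, and these ranges overlapped. WT-labelled libraries held 11.1, 18.1, 16.7 and 15.3 CPM with T3 and 3.01, 4.56, 7.16 and 5.96 CPM untreated, with no overlap. T3 raised Casr by 1.56 ± 0.25 under the WT label (adjusted p = 0.000717), and the change under the RXRgKO label was -0.08 ± 0.46 (adjusted p = 0.947).

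S1pr5 encodes the sphingosine 1-phosphate receptor typical of the oligodendrocyte lineage. Levels were 0.967, 0.737, 0.728 and 0.591 CPM in RXRgKO-labelled T3 libraries against 0.48, 0.347, 0.979 and 0.388 CPM in RXRgKO-labelled untreated ones, and 18, 45.4, 42.8 and 46.1 CPM in WT-labelled T3 libraries against 7.48, 13.1, 14.9 and 12.0 CPM in WT-labelled untreated ones. The libraries overlapped under the RXRgKO label and did not under the WT label, where replicate 1 was lowest in both treatments. S1pr5 rose with T3 by 1.68 ± 0.29 under the WT label (adjusted p = 0.00147); the change under the RXRgKO label was 0.48 ± 0.42 (adjusted p = 0.608). It shares 51 exonic bases with Gm48303 on the opposite strand, which had 0 to 11 counts in any library.

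Among the secreted proteins, Adamts4 encodes a protease that cleaves aggrecan, brevican and other matrix proteoglycans. It was the most abundant of the 9 genes, with 24.2, 21.4, 63.2 and 64.9 CPM in RXRgKO-labelled T3 libraries, 15.1, 18.6, 14.0 and 21.0 CPM in RXRgKO-labelled untreated ones, 331, 507, 506 and 536 CPM in WT-labelled T3 ones and 352, 272, 275 and 275 CPM in WT-labelled untreated ones. T3 libraries lay above untreated ones under the RXRgKO label, narrowly for replicates 1 and 2; under the WT label replicate 1 with T3 was below untreated replicate 1. The T3 rise was 1.34 ± 0.31 under the RXRgKO label (adjusted p = 0.027). That call was lost under 8 of 16 alternatives: without any 1 of the RXRgKO-labelled untreated replicates (adjusted p 0.0587 to 0.0871), without T3 replicate 3 (0.109) or 4 (0.125), with only the 2 groups compared (0.11), and in the libraries lacking Xist (0.383), within a range of 0.000525 to 0.383. Under the WT label the change was 0.68 ± 0.30 (adjusted p = 0.197), and with the replicate block 0.66 (adjusted p = 0.0103), within a range of 0.0103 to 0.381. The gene lies on chromosome 1, 3.61 Mb from Rxrg.

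Trf encodes transferrin, the iron carrier that oligodendrocytes make in the brain. It stood at 8.55, 7.74, 18 and 22.7 CPM in RXRgKO-labelled T3 libraries and 3.63, 3.47, 4.00 and 3.94 CPM in RXRgKO-labelled untreated ones. WT-labelled libraries held 60.3, 98.3, 100 and 115 CPM with T3 and 21.7, 20.6, 23.0 and 20.6 CPM untreated. T3 libraries were above untreated ones under both labels without overlap. Trf rose with T3 by 1.93 ± 0.29 under the RXRgKO label (adjusted p = 0.00106) and by 2.12 ± 0.28 under the WT label (adjusted p = 0.000154). Under the RXRgKO label its call was lost in the libraries lacking Xist (1.13, adjusted p = 0.0955), within a range of 4.94e-09 to 0.0955 over 16 alternatives. Trf shares 2108 of its 3320 exonic bases on the same strand with Gm20425, which was not analysed here. Reads in those bases fit both genes and may be missing from the Trf count, so its level is uncertain.

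Hapln2 encodes a link protein that ties hyaluronan to proteoglycans around nodes of Ranvier. Levels were 0.619, 0.526, 1.14 and 1.33 CPM in RXRgKO-labelled T3 libraries against 0.377, 0.424, 0.681 and 0.299 CPM in RXRgKO-labelled untreated ones, and 17.3, 29.2, 28.3 and 30.2 CPM in WT-labelled T3 libraries against 7.52, 10.1, 9.48 and 10.1 CPM in WT-labelled untreated ones. Untreated replicate 3 overlapped T3 replicates 1 and 2 under the RXRgKO label, and there was no overlap under the WT label. Hapln2 rose with T3 by 1.5 ± 0.24 under the WT label (adjusted p = 0.000656). Its change under the RXRgKO label, 1.12 ± 0.33, had an adjusted p of 0.0872, which was 0.0224 with DESeq2 and 0.0475 without RXRgKO-labelled T3 replicate 2, within a range of 0.0224 to 0.951.

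Cldn14 encodes claudin 14, a tight-junction protein of inner ear and kidney epithelia. It held 0.387, 0.105, 0.364 and 0.295 CPM in RXRgKO-labelled T3 libraries and 0.411, 0.077, 0.553 and 0.119 CPM in RXRgKO-labelled untreated ones, with overlap. WT-labelled libraries held 10.8, 26.9, 29.4 and 30.5 CPM with T3 and 0.732, 2.53, 1.98 and 2.09 CPM untreated, and even the lowest T3 library was above the highest untreated one. The WT-labelled rise, 3.73 ± 0.42 (adjusted p = 3.25e-05), was the largest T3 rise of the 9 genes under either label. The change under the RXRgKO label was 0.11 ± 0.64 (adjusted p = 0.949).

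Tmem125 encodes a transmembrane protein. RXRgKO-labelled T3 libraries held 0.387, 0.895, 0.364 and 0.32 CPM and RXRgKO-labelled untreated ones 0.343, 0.27, 1.23 and 0.418 CPM. WT-labelled T3 libraries held 20.1, 47.1, 48.3 and 52.6 CPM and WT-labelled untreated ones 8.50, 18.8, 19.0 and 18.3 CPM. The libraries overlapped under the RXRgKO label, and under the WT label replicate 1 was lowest in both treatments. Tmem125 rose with T3 by 1.38 ± 0.35 under the WT label (adjusted p = 0.0216), a call lost without WT-labelled untreated replicate 4 or T3 replicate 2, 3 or 4 (adjusted p 0.0514 to 0.0739), within a range of 2.38e-06 to 0.0739. Under the RXRgKO label the change was -0.27 ± 0.56 (adjusted p = 0.847).

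Across the 9 genes, T3 thus raised 3 under the RXRgKO label (Ddc, Trf and Adamts4), where 2.01% of all genes were called higher, and 7 under the WT label, where 4.96% were; none was called lower, against 0.794% of all genes under the RXRgKO label and 3.48% under the WT label. The median T3 change of the 9 was 0.83 under the RXRgKO label (-0.00188 over all 19764 genes) and 1.56 under the WT label (-0.0316 over all genes). These T3 comparisons use the untreated libraries in which the genes were chosen. With the replicate number as a block in the 8 WT-labelled libraries all 9 genes were called higher, among 5084 genes called in all, but the numbers did not pick out pairs among replicates 2 to 4, where different numbers correlated at 0.15 to 0.269 and same numbers at 0.164 to 0.247. All 9 were also called with only the 2 WT-labelled groups in the fit and no block, among 1620 genes. The T3 and untreated WT-labelled libraries differed in Xist and Ddx3y, and the part of that difference in the result was not tested. In WT-labelled replicate 1, which differed least in them, 8 of the 9 genes were higher with T3 than untreated, Adamts4 being the exception. That sets 1 library against 1 with no stated pairing, and the share of all genes higher there was not taken. The count therefore cannot decide what part Xist and Ddx3y had.

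**Figure D2:**
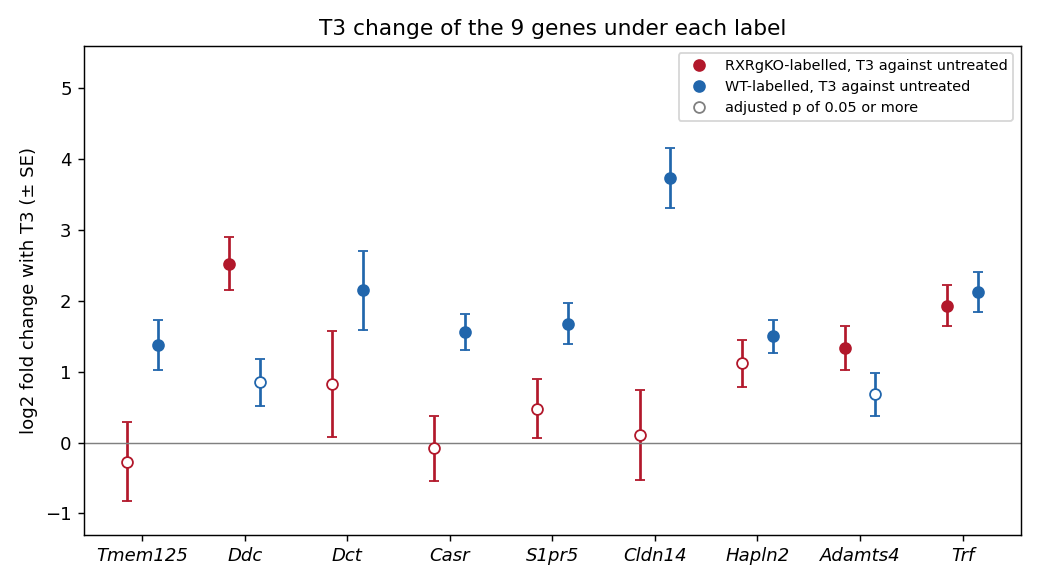
T3 change of each of the 9 genes as log2 fold change ± SE (4 T3 against 4 untreated libraries), under the RXRgKO label (red) and the WT label (blue); open markers have an adjusted p of 0.05 or more. Ddc, Adamts4 and Trf have filled red markers, and Cldn14 has the highest blue marker, at 3.73.

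The difference in T3 response between labels was tested for each gene, subtracting the WT-labelled change from the RXRgKO-labelled one. None of the 9 was called by edgeR (0.0658% of all genes were). An unadjusted edgeR p under 0.05 was reached by 5 of the 9, against 1017 of all 19764 genes. Cldn14 had the largest difference, -3.63 ± 0.79 (adjusted p = 0.142); DESeq2 called it alone among the 9 (adjusted p = 0.000112), as did edgeR without WT-labelled T3 replicate 1 (0.0247) and without replicate 1 of both WT-labelled groups (0.00939), within a range of 0.000112 to 0.875. Ddc differed the other way, 1.68 ± 0.49 (adjusted p = 0.362), and was called with only the RXRgKO-labelled libraries with Xist (2.23, adjusted p = 0.00925), within a range of 0.00925 to 1. Trf differed by -0.19 ± 0.40 (adjusted p = 1). For Casr and Tmem125 the differences were -1.64 ± 0.53 (adjusted p = 0.509) and -1.65 ± 0.66 (adjusted p = 0.774).

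With T3, the RXRgKO-labelled libraries reached a mean of 66.5% of the untreated WT-labelled level for Trf. That mean joins 18 and 22.7 CPM in the T3 libraries with Xist and 8.55 and 7.74 CPM in those lacking it, against 20.6 to 23.0 CPM in untreated WT-labelled libraries, and replicate 4 (22.7 CPM) alone reached the untreated WT-labelled range. For the other 8 genes the RXRgKO-labelled T3 libraries stayed below every untreated WT-labelled one (8.17% of all genes were called lower in this comparison, which shares libraries with the choice of genes and is given with no test). The share was 22.2% for Ddc, 15.7% for Cldn14, 14.8% for Adamts4 and 9.75% for Hapln2. It was 7.77% for Dct, 6.36% for S1pr5, 3.79% for Casr and 3.04% for Tmem125. Without T3 these shares were 17.5% for Trf, 3.86% for Ddc, 5.86% for Adamts4 and 15.8% for Cldn14. Set against WT-labelled libraries that also had T3, the RXRgKO-labelled T3 level was highest for Trf, at 15.3%, and lowest for Tmem125, at 1.17%.

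T3 changes under the RXRgKO label were also taken within the library sets. In the libraries with Xist, T3 changed Ddc by 3.11 ± 0.25 (adjusted p = 2.25e-05), Trf by 2.44 ± 0.27 (0.000275), Hapln2 by 1.77 ± 0.40 (0.0265) and Adamts4 by 1.68 ± 0.23 (0.00118), and 793 genes were called in all. In those lacking it, Ddc alone of the 9 was called, at 1.42 ± 0.23 (adjusted p = 0.0112), among 129 genes. Trf changed there by 1.13 ± 0.26 (adjusted p = 0.0955), Adamts4 by 0.68 ± 0.23 (0.383) and Hapln2 by 0.19 ± 0.46 (0.951). Each set has 2 T3 and 2 untreated libraries, and libraries of a set and treatment were alike (chi-square per gene of 1.49 to 1.86). These p-values may thus measure technical spread, which was estimated together with the WT-labelled libraries. In the set with Xist, Ddx3y was at 22.1 and 20.7 CPM with T3 against 52.9 and 51.2 CPM untreated. Neither its part nor the difference between sets was tested. The sets also differed in Gfap, an astrocyte gene, at 1760 and 1940 CPM in the T3 libraries with Xist and 4010 and 3460 CPM in those lacking it; its part in the result was not tested.

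**Figure D3:**
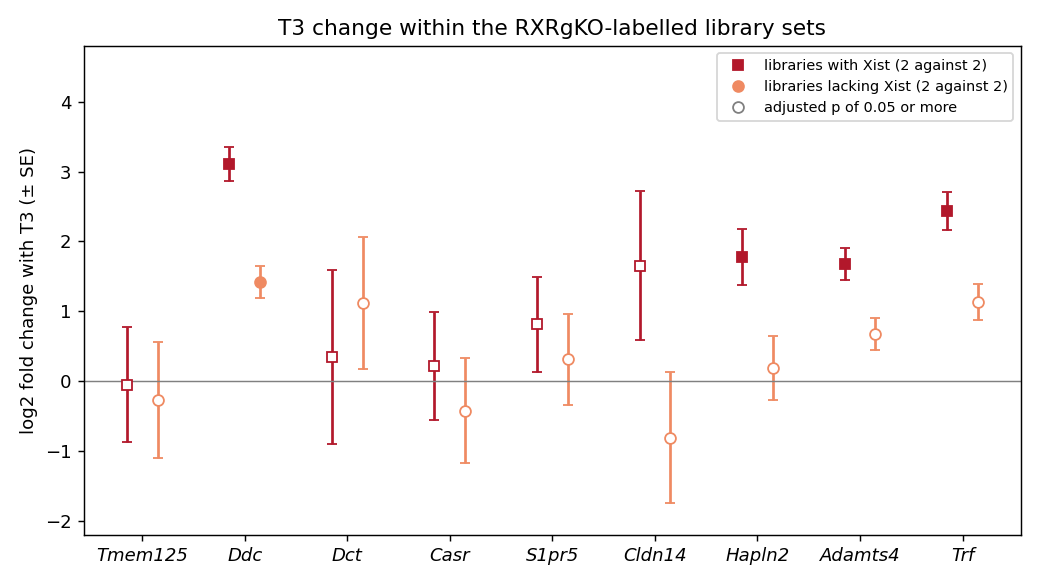
T3 change of each of the 9 genes within the RXRgKO-labelled libraries with Xist (dark squares) and those lacking it (light circles), as log2 fold change ± SE from 2 T3 against 2 untreated libraries; open markers have an adjusted p of 0.05 or more. Filled dark squares mark Ddc, Hapln2, Adamts4 and Trf, and the filled light circle marks Ddc.

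The 9 genes varied together over libraries, which their choice by label already implies. Pearson's r between pairs of members ran from 0.816 to 0.989 over the 16 libraries (36 pairs, median 0.928). Once group means were subtracted it ran from -0.657 to 0.914 (median 0.416, positive in 28 pairs). Among the 10 genes most like the mean profile of the 9, by r over 16 libraries among 15307 genes, were Myo1d (0.995), Jakmip3, Rab44, Bace2, Gjb1, Cpox, Plekha1 and Carmil1 (0.983). Of all candidates, 252 had an r over 0.9. Gjb1 encodes a connexin of oligodendrocyte gap junctions. For single members, the most similar gene was Fbxo32 for Ddc (0.994), Carmil1 for Casr (0.985), Myo1d for S1pr5 and for Hapln2 (0.994 each), Cntn4 for Cldn14 (0.971), Plekha1 for Adamts4 (0.992) and Dusp10 for Trf (0.988).

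Most myelin and mature oligodendrocyte genes were also lower under the RXRgKO label. Of 24 tested, 21 fell and none rose in RXRgKO-labelled against WT-labelled libraries without T3 (median -2.41, against -0.000818 over all genes), among them Mobp (-7.01 ± 0.65), Mbp (-4.74 ± 0.32) and Mag (-3.73 ± 0.25). T3 raised 10 of the 24 under the RXRgKO label (median 0.815; 5 in the libraries lacking Xist) and 15 under the WT label (median 1.04), with none lower. Opalin, a late myelin gene, rose with T3 by 5.49 ± 0.38 under the RXRgKO label and 3.41 ± 0.34 under the WT label. Mog rose by 3.68 ± 0.38 under the RXRgKO label and 3.02 ± 0.34 under the WT label. In RXRgKO-labelled T3 libraries against WT-labelled untreated ones, 15 of the 24 were called lower and 3 higher: Opalin (4.17), Ninj2 (2.67) and Mog (1.54). None of the 9 genes was higher in that comparison, where 9.52% of all genes were called higher. Their choice for falls against the same untreated WT-labelled libraries made that outcome likely. Summed over the list, the libraries held 3840 to 6200 CPM in the RXRgKO-labelled T3 group, 2090 to 2660 CPM in the RXRgKO-labelled untreated group, 21800 to 32000 CPM in the WT-labelled T3 group and 14300 to 19500 CPM in the WT-labelled untreated group. The list's mean profile had an r of 0.975 with that of the 9 genes over the 16 libraries, and 0.649 after group means were subtracted. The points share their libraries, and the 9 genes were chosen by label. Over the 16 libraries r was -0.963 for mural and mesenchymal genes, -0.905 for microglial, -0.797 for neuronal and -0.00522 for OPC genes. After group means were subtracted, r was 0.615 for neuronal and -0.569 for committed and premyelinating genes. A high r was thus not particular to the myelin list there. Of 15 committed and premyelinating genes 5 fell and 1 rose without T3 between labels, and of 17 OPC genes 1 fell and none rose.

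**Figure D4:**
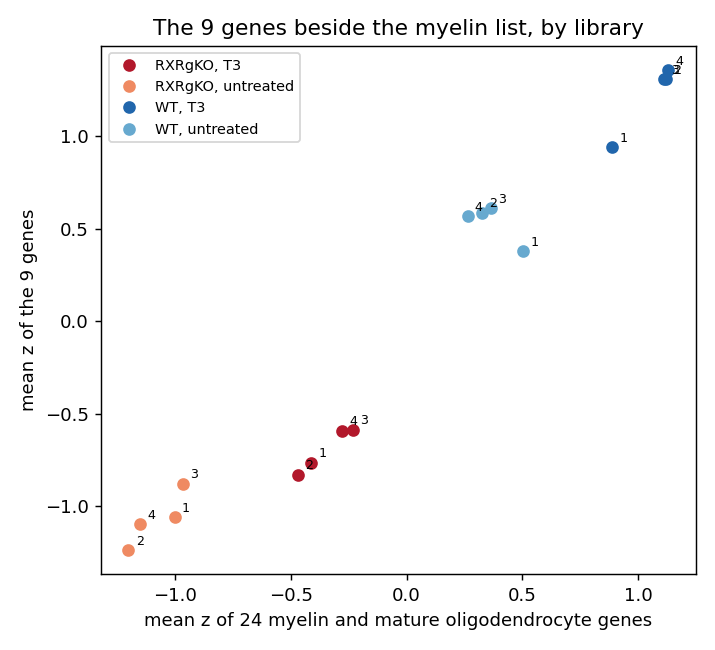
Mean z score over libraries of the 9 genes (vertical axis) against that of 24 myelin and mature oligodendrocyte genes (horizontal axis) in 16 libraries, coloured by group and numbered by replicate. RXRgKO-labelled libraries lie at the lower left and WT-labelled ones at the upper right (r = 0.975), a split for which the 9 genes were chosen.

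Other genes of each member's pathway or family mostly did not fall with it in untreated RXRgKO-labelled against WT-labelled libraries, where 6.17% of all genes were called higher and 5.16% lower. Of 10 aromatic amine genes tested beside Ddc, 2 rose and none fell (median 0.673): Th, which makes L-DOPA (1.59 ± 0.35), and Slc18a2, the vesicular monoamine transporter (1.38 ± 0.39). Both were low, with untreated means of 0.8 CPM under the RXRgKO label against 0.264 CPM for Th and 3.32 against 1.27 CPM for Slc18a2. Of 6 melanin genes tested beside Dct, Mitf, the master regulator of pigment cells, fell by 1.72 ± 0.29 (adjusted p = 0.000693), and 5 were not called (median 0.258). None of 6 calcium-sensing genes tested beside Casr was called (median -0.128). Beside S1pr5, S1pr3, another receptor for the same lipid, rose by 1.13 ± 0.20, and 8 of 9 genes were not called (median -0.233).

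Of 12 tight-junction genes tested beside Cldn14, Ocln (1.96 ± 0.23) and F11r (1.62 ± 0.35) rose, and 2 fell (median 0.274): Cldn11, which forms the tight junctions of myelin and is also in the myelin list, had a change of -3.76 ± 0.27 and Cldn10 one of -1.77 ± 0.25. Ocln and F11r were low, with untreated means of 3.86 and 1.28 CPM under the RXRgKO label against 0.989 and 0.409 CPM. The hyaluronan and lectican genes beside Hapln2 included 4 rises of 12 and no fall (median 0.204), with Hapln1, another link protein, at 2.67 ± 0.68 and Has2, a hyaluronan synthase, at 0.82 ± 0.18. Beside Adamts4, 7 of 16 genes rose and none fell (median 0.706), among them Adamts12 (1.31 ± 0.17), Adamts1 (0.79 ± 0.11) and Adamts2 (1.57 ± 0.25). Beside Trf, 3 of 13 iron genes rose and 2 fell (median 0.164). Cp, the ferroxidase ceruloplasmin, rose by 2.94 ± 0.46 and Slc40a1, the iron exporter, by 0.83 ± 0.18, while Ftl1, a ferritin subunit, had a change of -0.51 ± 0.11.

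**Figure D5:**
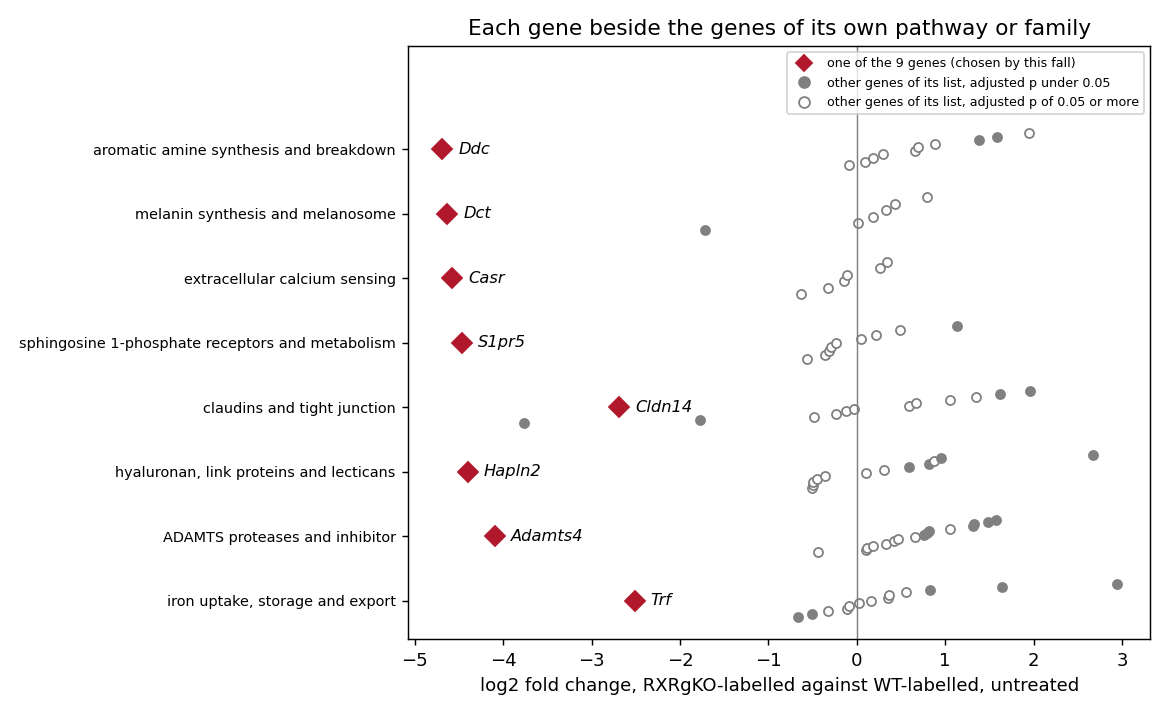
Log2 fold change of untreated RXRgKO-labelled against WT-labelled libraries for 8 of the 9 genes (red diamonds) beside the other tested genes of their pathway or family list (circles; filled where the adjusted p is under 0.05). The diamonds were chosen by this fall and lie between -4.69 and -2.51, and Cldn11 (-3.76) is the circle farthest to the left.

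Markers of other cell types moved with the labels too. Of all genes, 6.17% were called higher in RXRgKO-labelled than in WT-labelled libraries without T3, and 8.1% with T3. Without T3, 7 of 9 mural and mesenchymal genes were called higher in RXRgKO-labelled libraries (median 3.33), among them Acta2, a smooth-muscle actin (4.13 ± 0.47), and Tagln (3.51 ± 0.45). Rgs5 (-1.06 ± 0.34, adjusted p = 0.055) and Pdgfrb (-0.13 ± 0.40, adjusted p = 0.9) were not called and did not rise. The list's summed level was 541 to 659 CPM in RXRgKO-labelled T3 libraries and 393 to 925 CPM in RXRgKO-labelled untreated ones. WT-labelled libraries held 90.9 to 119 CPM with T3 and 84.4 to 106 CPM untreated. Microglial genes were called higher for 8 of 9 (C1qb 3.52 ± 0.56), at low sums of 5.49 to 25 CPM in RXRgKO-labelled T3 libraries, 14.9 to 27.9 CPM in RXRgKO-labelled untreated ones, 2.18 to 3.24 CPM in WT-labelled T3 ones and 2.97 to 4.05 CPM in WT-labelled untreated ones. Endothelial genes were called higher for 3 of 5 (Kdr 2.42 ± 0.31), with sums of 22.3 to 34 CPM in RXRgKO-labelled T3 libraries, 22.5 to 49.6 CPM in RXRgKO-labelled untreated ones, 9.23 to 11.6 CPM in WT-labelled T3 ones and 7.36 to 9.77 CPM in WT-labelled untreated ones. Neuronal genes were called higher for 2 of 12 without T3 and 8 of 12 with T3 (median 0.952). T3 under the WT label lowered 5 of 12, against 3.48% of all genes. The neuronal list summed to 1870 to 2430 CPM in RXRgKO-labelled T3 libraries and 2110 to 2520 CPM in RXRgKO-labelled untreated ones. Its sums were 1310 to 1360 CPM in WT-labelled T3 libraries and 1440 to 1880 CPM in WT-labelled untreated ones. Choroid plexus genes were called higher for 1 of 6 without T3 and 2 of 6 with T3. No astrocyte gene of 10 and no Schwann cell gene of 3 was called between labels by edgeR, without or with T3. Melanocyte markers, which bear on Dct, summed to 12.3 to 21.9 CPM in RXRgKO-labelled T3 libraries, 11.2 to 14.1 CPM in RXRgKO-labelled untreated ones, 27 to 46 CPM in WT-labelled T3 ones and 27.6 to 60.2 CPM in WT-labelled untreated ones. Mitf made up most of these sums, with group means of 15.1, 10.4, 31.1 and 34.1 CPM in the same order. It was the 1 of 4 called lower. Without T3, Tyr (0.79 ± 0.80) and Tyrp1 (0.43 ± 0.66) were not called between labels, and the list's median was 0.223. Pmel, a melanosome protein, stood at 1.46 to 1.64 CPM in every group mean. In these lists Pmp2, a Schwann cell gene, was at 0 in every RXRgKO-labelled T3 library, and no other marker was at 0 throughout a group. The part of these cell types in the results was not tested.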

How the data were processed

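Per the labels, poly-A selected, dUTP-stranded libraries were made from total RNA. The authors deposited raw counts per Ensembl gene; bcl2fastq 2.17.1.14, STAR 2.5.3a, HTSeq 0.6.1p1 and mm10 are named per the submitters' processing notes. For the counting, neither strand setting nor annotation release is given in the sources used here. Each file ends in 5 summary lines, left out of library sizes and tests; 11.5% to 23.5% of reads lay in no annotated gene. GENCODE M21 on GRCm38 gave symbols for 55154 identifiers.

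All 16 libraries entered 1 fit with a mean per group (R 4.3.3, edgeR 4.0.16 with limma 3.58.1; TMM, filterByExpr, robust glmQLFit). Each SE was taken as the absolute log2 change over the root of its F statistic. Profiles used log2 CPM with a prior count of 2. Library sets were formed at a chi-square per gene under 3, taken over genes whose 2 counts summed to at least 20 and under 500. Alternatives were DESeq2 1.42.0, its size factors in edgeR, other filters, fewer groups, a replicate block, and libraries or sets left out. The pipeline was tested on simulated data.

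Members, gene lists and library sets were chosen with earlier results of these data known. Named genes were the 9, Rxrg, the most alike genes, up to 4 genes per pathway or lineage list by adjusted p plus the highest-expressed pathway member, and abundant markers of other cell types; the text names part of them. Same-number libraries correlated after group means at 0.648, 0.247, 0.211 and 0.164 for T3 under the WT label, all over 0.1, and the block was fitted there. Different numbers among replicates 2 to 4 correlated at 0.15 to 0.269, so only replicate 1 stood out, the T3 and untreated libraries of those numbers were unlike in Xist and Ddx3y, and the labels state no pairing. Under the RXRgKO label the values were 0.543, -0.629, -0.697 and 0.600, and no pairing was used. The count model estimates the spread between libraries as well as counting error. Reads carry no molecular identifiers. Results for some genes are left out here.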

Additional observations from a re-analysis of the deposited data

Results flagged for a closer look

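In 9 of the 40 combinations of a gene (the 9 and Rxrg) and a group of 4 libraries, 1 library stood apart from the other 3 by more than Dixon's 95% critical value; chance flags about 1 in 20. WT-labelled replicate 1 was the library in 7 of them. With T3 it was lowest for Tmem125 (20.1 CPM, others 47.1 to 52.6 CPM), S1pr5 (18 CPM, others 42.8 to 46.1 CPM), Hapln2 (17.3 CPM, others 28.3 to 30.2 CPM) and Adamts4 (331 CPM, others 506 to 536 CPM). Untreated, it was lowest for Tmem125 (8.50 CPM, others 18.3 to 19.0 CPM) and highest for Ddc (129 CPM, others 76.6 to 85.0 CPM) and Adamts4 (352 CPM, others 272 to 275 CPM). The remaining ones were Tmem125 in RXRgKO-labelled T3 replicate 2 (0.895 CPM, others 0.32 to 0.387 CPM) and in RXRgKO-labelled untreated replicate 3 (1.23 CPM, others 0.27 to 0.418 CPM).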

How the results depend on the processing

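All 9 genes stayed lower under the RXRgKO label, without and with T3, in each alternative run. Genes called for T3 under the RXRgKO label (555) numbered 1194 with DESeq2, 129 in libraries lacking Xist (1 member) and 253 to 500 with a library left out (2 to 4 members). For T3 under the WT label (1668) they numbered 5084 with a replicate block in the WT-labelled libraries alone, 2688 without replicate 1 of both WT-labelled groups and 997 to 2475 with a library left out (5 to 7 members). For the response difference (13) they numbered 112 with DESeq2, 20 with a filter of 1 CPM in 4 libraries, 4 with the replicate block in all 16 libraries, 118 without WT-labelled replicate 1 and 26 with Xist only; 1 member was called with DESeq2, without WT-labelled replicate 1 and with Xist only, and leaving out a library gave 3 to 49 genes and 0 to 1 members. Using only libraries lacking Xist gave 4518 genes between labels without T3 (2240; 1712 to 2206 with a library left out), 5955 with T3 (2943; 2178 to 3195) and 5770 for RXRgKO-labelled T3 against WT-labelled untreated (3496; 2524 to 4013). The block in all 16 libraries called 3 members for T3 under the RXRgKO label and 7 under the WT label, as without it. Signs turned only in uncalled values. For T3 under the RXRgKO label, Casr ran from -0.371 to 0.0862 with a library left out and was 0.218 with Xist only. Cldn14 ran from -0.179 to 0.564 and was -0.809 in libraries lacking Xist, and Tmem125 ran from -0.613 to 0.377. For the response difference, Trf ran from -0.505 to 0.0175 and was 0.29 with Xist only, Hapln2 was 0.248 with Xist only and Adamts4 -0.042 in libraries lacking Xist. The cause was not tested. Depth limits Casr, Cldn14, Tmem125 and Dct under the RXRgKO label, where their lowest counts were 2, 2, 7 and 7.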

Other observations

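T3 changed several relatives of the 9 genes under both labels. Cldn12, a claudin, rose by 1.91 ± 0.22 under the RXRgKO label (adjusted p = 5.79e-05) and by 2.41 ± 0.22 under the WT label (adjusted p = 3.84e-06). Tph2, which makes the serotonin precursor that Ddc converts, rose by 1.80 ± 0.41 under the RXRgKO label (adjusted p = 0.0253) and by 2.06 ± 0.46 under the WT label (adjusted p = 0.00854). Its means were low, at 1.05 CPM with T3 against 0.287 CPM under the RXRgKO label and 0.758 against 0.178 CPM under the WT label. S1pr3 rose by 0.81 ± 0.20 under the RXRgKO label (adjusted p = 0.0387) and by 1.60 ± 0.20 under the WT label (adjusted p = 0.000112). The 16 genes listed beside Adamts4 were other ADAMTS genes and the inhibitor Timp3. None of them was called with T3 under the RXRgKO label, by edgeR at an adjusted p under 0.05. Under the WT label 4 of the 16 were higher and 2 lower, with Adamts2 at 1.93 ± 0.25 and Adamts18 at -1.36 ± 0.27. Among iron genes, Steap3, an iron reductase, rose under the WT label by 2.05 ± 0.32 and Heph, a ferroxidase, had a change of -1.37 ± 0.21. For the response difference edgeR called none of the 16 genes listed beside Adamts4 and none of the 13 iron, 12 tight-junction, 10 aromatic amine and 9 sphingosine 1-phosphate genes.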
